A study of Mus musculus with 14 samples.

Results

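The genes described here are 10 imprinted genes of fetal growth, H19, Igf2, Igf2r, Grb10, Dlk1, Meg3, Rian, Peg3, Plagl1 and Mest. They were chosen by name, and all 10 were found among the 54446 genes of the table. Their RNA was measured by total RNA sequencing in whole livers, frozen at removal, of 14 mice of the C57BL/6 strain aged 5 weeks. The 8 knockout mice carried a floxed Mettl3 gene and Alb-Cre, in which the albumin promoter directs the recombinase to hepatocytes. The 6 control mice carried the same floxed Mettl3 gene without the recombinase. Mettl3 is the catalytic subunit of the enzyme complex that writes N6-methyladenosine (m6A) on RNA. Other cells of a knockout liver, such as endothelial and Kupffer cells, keep the gene. The comparison asked how liver RNA differs when hepatocytes lose this enzyme. Sex was not labelled, and nothing in the labels said whether any of the mice were littermates.

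An imprinted gene is read mainly from the copy of 1 parent, and DNA methylation set in egg or sperm marks which copy that is. Paternally expressed genes such as Igf2, Dlk1, Peg3, Plagl1 and Mest tend to promote growth before birth. Maternally expressed genes such as H19, Igf2r, Grb10 and Meg3 tend to restrain it. In mouse liver these genes belong to a network that is high before birth and is turned down in the first weeks of life. All mice were of 1 age, so that decline was not measured here, and the reads did not tell the parental copies apart.

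The sequences shown first are those of the genes whose RNA passed the test below. H19 is a long noncoding RNA and also the host of a microRNA. The mature arms of that microRNA lie within H19 on the minus strand of mouse chromosome 7 (RefSeq, GRCm38.p6), at chr7:142577112-142577133 and chr7:142577078-142577099. Their seeds, bases 2 to 8, are in capitals.
miR-675-5p: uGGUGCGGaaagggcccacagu
miR-675-3p: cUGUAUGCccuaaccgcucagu
Mettl3 places m6A within a short consensus sequence, of which GGACT is a common form. The GENCODE M21 transcript of H19 (2286 bases, 5 exons) holds GGACT 6 times on its own strand. Each is shown in capitals with 10 bases on either side, on the minus strand of GRCm38.
H19 window 1, chr7:142578001-142578025: gaatgttgaaGGACTgaggggctag
H19 window 2, chr7:142577207-142577231: tgcaggtatcGGACTccagagggat
H19 window 3, chr7:142577123-142577147: tgcggcccagGGACTggtgcggaaa
H19 window 4, chr7:142577097-142577121: ggcccacagtGGACTtggtacactg
H19 window 5, chr7:142576829-142576853: cgaagagctcGGACTggagactagg
H19 window 6, chr7:142576275-142576299: ttgaatccggGGACTtctttaagtc
Windows 1 to 5 lie in exon 1 and window 6 in exon 4. The GGACT of window 3 overlaps the start of miR-675-5p, and window 4 spans the stretch between the arms. H19 held 2.62 GGACT per kb, a density above that of 95.8% of 23546 tested genes with a transcript. The median was 0.965 per kb, and 86.3% of those genes held GGACT at least once. Meg3 held 16 in 14548 bases (1.10 per kb), and Rian held 2 in 8089 bases (0.247 per kb). These are matches to letters, and methylation of the RNA was not measured.

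The other gene that passed the test, Meg3, lies beside Dlk1 and Rian on chromosome 12. The stretch from 250 bases before to 50 bases after the start of each gene is given from RefSeq (GRCm38.p6), on the gene's own strand, with the upstream one of the 2 entries for Meg3. Capitals mark CG, the pair of bases that DNA methylation acts on.
Meg3 start, chr12:109540746-109541045, plus strand: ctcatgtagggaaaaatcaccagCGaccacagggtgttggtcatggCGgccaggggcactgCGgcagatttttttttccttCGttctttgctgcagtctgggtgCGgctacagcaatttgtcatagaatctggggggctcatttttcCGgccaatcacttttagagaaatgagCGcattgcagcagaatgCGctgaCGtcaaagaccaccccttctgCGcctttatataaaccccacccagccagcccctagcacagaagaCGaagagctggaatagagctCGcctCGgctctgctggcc
Rian start, chr12:109603695-109603994, plus strand: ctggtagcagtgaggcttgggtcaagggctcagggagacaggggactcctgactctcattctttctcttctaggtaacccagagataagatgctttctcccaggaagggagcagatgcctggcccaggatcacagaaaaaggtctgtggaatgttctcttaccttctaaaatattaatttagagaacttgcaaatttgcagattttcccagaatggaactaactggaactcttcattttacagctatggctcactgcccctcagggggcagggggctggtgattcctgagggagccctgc
Dlk1 start, chr12:109452573-109452872, plus strand: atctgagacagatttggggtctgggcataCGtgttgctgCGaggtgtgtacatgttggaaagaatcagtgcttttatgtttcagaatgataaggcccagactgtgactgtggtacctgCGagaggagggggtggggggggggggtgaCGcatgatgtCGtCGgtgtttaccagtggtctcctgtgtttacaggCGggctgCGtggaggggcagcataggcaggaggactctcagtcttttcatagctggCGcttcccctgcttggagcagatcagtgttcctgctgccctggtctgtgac
The Meg3 stretch held 13 CG, the Rian stretch 0 and the Dlk1 stretch 9. Over 32851 such stretches the median was 7, and 94.6% held at least 1. The Meg3 stretch also held TATAAA, searched on both strands, as a pair of overlapping matches. TATAAA was present in 13.6% of all stretches. The motif CCGCCAT, the core that the factor YY1 binds, matched the Meg3 stretch once on the strand opposite to the one printed, and 4.05% of all stretches held it. Of the 10 genes, 9 had an entry in the promoter table.

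Values are normalised estimated reads per gene, which the authors obtained by dividing the estimated reads of a library by its size factor. Changes are knockout minus control on the scale of log2(value + 1), tested with limma across 23554 genes, and a gene was called at a Benjamini-Hochberg adjusted p of at most 0.05. Depth was 11.1 to 30.9 M estimated reads (M, megareads) in knockouts and 13.7 to 33.8 M in controls. Mettl3 itself averaged 99.5 ± 15.7 in knockouts (SD, n = 8) and 223 ± 23.7 in controls (SD, n = 6), -1.17 on the log2 scale (limma adjusted p = 1.32e-05). Knockouts 3, 6 and 7 stood apart from the other knockouts on the leading principal component (31.3% of variance), at 61.5 to 99.7 against -10.7 to 27.6. Replicates 5 to 8 of the knockouts and 5 and 6 of the controls had high Xist, and replicates 1 to 4 of both groups had low Xist. The Y chromosome genes Ddx3y, Kdm5d, Uty and Eif2s3y summed to 186 to 292 at high Xist and 1749 to 3248 at low Xist. The classes are thus read as female and male, although sex was not labelled. High Xist went with lower depth. None of the 10 lists of cell type markers had a marker at 0 in all libraries. The summed hepatocyte markers were 372150 to 779194 in knockouts and 792550 to 972572 in controls, and 6 of the 8 markers were called lower. Skeletal muscle markers summed to over 500 in knockouts 1, 3, 4 and 8 and in control 2, and pancreatic acinar markers to 9522 in knockout 4, against at most 236 in the other knockouts and 838 in controls. The changes in H19, Meg3 and Peg3 are also given without knockouts 3, 6 and 7 and without the livers high in muscle markers.

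Of the 10 imprinted growth genes, 9 reached a value of 10 in 6 or more libraries and were tested. H19 rose, Meg3 fell, and 7 did not pass the test. Across all genes tested 22.4% were called, 11.5% as higher and 11% as lower, so 2 of 9 is close to the share of all genes. With libraries scaled to equal sums outside ribosomal RNA and mitochondrial genes, the counts over all genes were 7972 up and 831 down, and 2 up and 1 down among the 9. By the q that the authors deposited H19 and Meg3 were called as well (q = 0.000894 and 0.00108), out of 17.1% of their 27865 genes. The median change of the 9 was 0.03, against 0.05 over all genes tested. No gene of the 10 had groups that did not overlap, which for 10 genes is near the share of all genes tested, 8.16%. In bulk liver, fewer cells of a type and less RNA per cell cannot be told apart.

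**Figure D1:**
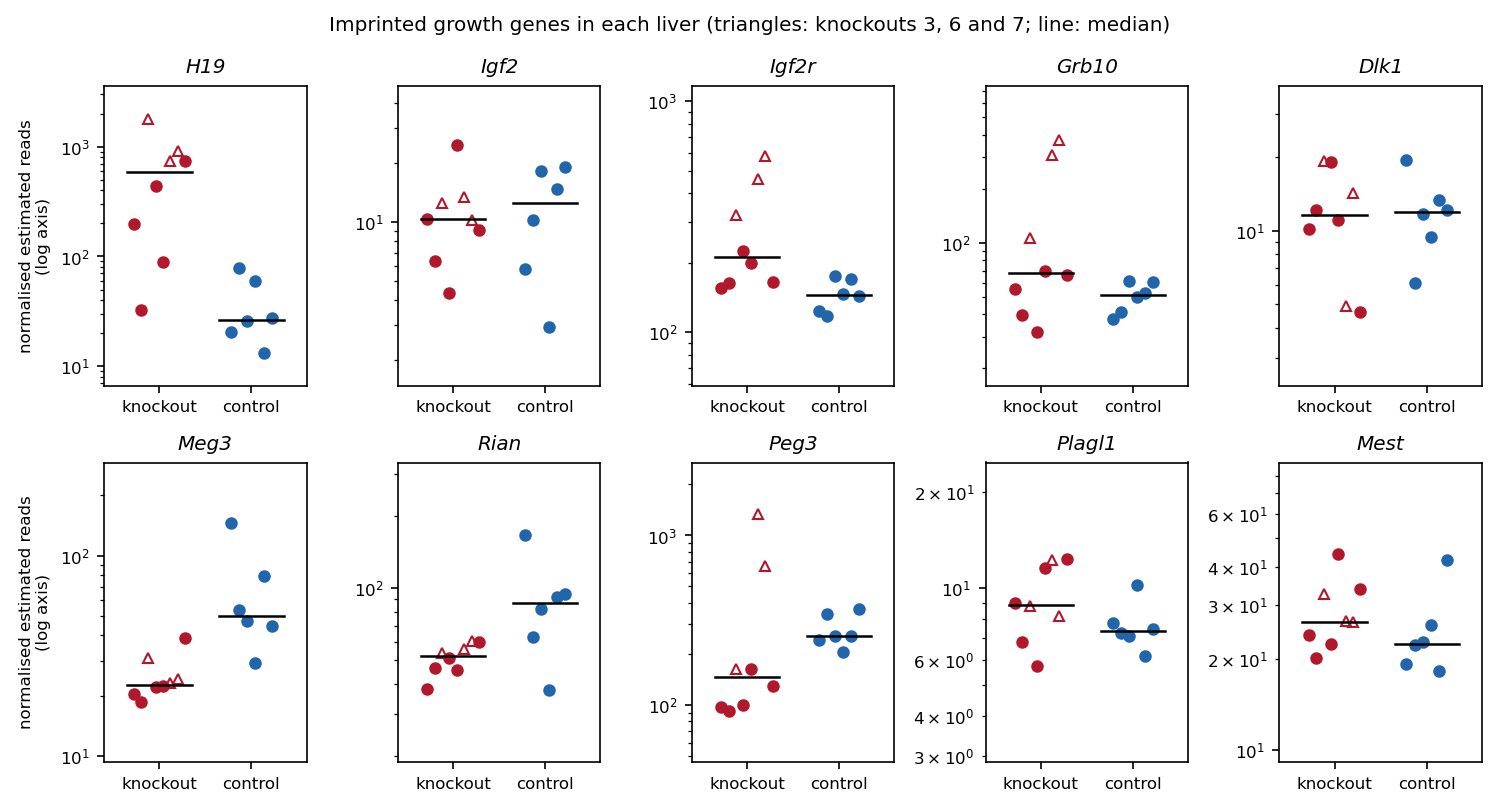
Normalised estimated reads (log axis) of the 10 genes in each liver, with knockouts (red, n = 8) left of controls (blue, n = 6), a line at the median, and triangles for knockouts 3, 6 and 7. H19 lies above the highest control in 7 of 8 knockouts, Meg3 lies below the lowest control in 6 of 8, and Peg3 splits the knockouts into 6 below and 2 above the controls.

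H19 (ENSMUSG00000000031) is a maternally expressed long noncoding RNA, annotated as a lincRNA at chr7:142575529-142578143 on the minus strand. It is abundant in fetal liver and known to restrain growth. In knockouts 1 to 8 its values were 199, 32.4, 1783, 434, 89.6, 735, 914 and 747. In controls 1 to 6 they were 20.7, 78.2, 25.7, 59.3, 13.3 and 27.6. Knockout 2 was the only knockout within the range of the controls, and the other 7 were above the highest control. The means were 617 ± 574 in knockouts (SD, n = 8) and 37.5 ± 25.5 in controls (SD, n = 6). On the scale of log2(value + 1) the difference was 3.45, or 10.9-fold (log2 SE 0.75, limma adjusted p = 0.00426). The exact permutation test over 3003 assignments of libraries gave p = 0.0030 (two-sided, with 0.000333 the smallest it can give). The knockouts spanned a wide range among themselves, with 32.4 as the lowest and 1783 as the highest value.

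Knockouts 3, 6 and 7 were among the 4 highest in H19. Without them the change was 2.49 (limma adjusted p = 0.0271). It was 2.72 in the livers of low Xist (4 knockouts, 4 controls, adjusted p = 0.0942) and 4.52 in those of high Xist (4 knockouts, 2 controls, adjusted p = 0.0680), both short of the threshold. The difference between the Xist classes was 1.80 (SE 1.58, limma interaction, adjusted p = 0.856). Leaving out 1 library at a time gave 3.11 to 3.93, all called. H19 is also known to be high in skeletal muscle. The 8 skeletal muscle markers summed to 1237, 103, 1104, 4763, 117, 120, 130 and 11686 in knockouts 1 to 8, and to 154, 887, 184, 123, 120 and 133 in controls 1 to 6. Knockouts 6 and 7 had 735 and 914 of H19 at muscle sums of 120 and 130, below the control median of 143. Knockouts 2 and 5, at muscle sums of 103 and 117, had 32.4 and 89.6 of H19. The highest muscle sum went with an H19 of 747 in knockout 8. Among the controls, the highest H19 was in control 2, which also had the highest muscle sum. Without the 5 libraries over 500, the change in H19 was 2.98 and was not called, with a limma adjusted p of 0.0562 over 4 knockouts and 5 controls. The part of muscle tissue in the H19 result was not tested.

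Markers of bile duct cells were examined as well. Of 8 cholangiocyte markers, 3 were called higher and 0 lower, or 37.5%, against 22.4% of all genes tested. At low Xist 1 was called higher. At high Xist 0 were called, with 4 higher at an unadjusted limma p under 0.05. The sum of the 8 was 1764 to 4094 in knockouts and 1146 to 2075 in controls, which overlapped. The sum was highest in knockouts 3, 6 and 7, at 3640, 3222 and 4094. Knockouts 4 and 8, with H19 at 434 and 747, had cholangiocyte sums of 1844 and 2156. Knockouts 2 and 5, the lowest in H19 at 32.4 and 89.6, had sums of 1764 and 2060. Knockout 1, with H19 at 199, had 2225. Of these sums, only those of knockouts 1 and 8 were above the range of the controls. The part of bile duct cells in the H19 result was not tested. By Pearson correlation of log2 values over the 8 knockouts, the genes most like H19 among 10449 of higher than median value were Sparcl1, Cd34, Zbed6, Tgfbr1 and Cacul1. Of the 12 stellate cell and fibroblast markers 0 were called by limma (0 higher and 1 lower at an unadjusted p under 0.05), with sums of 2476 to 4460 in knockouts and 2878 to 4285 in controls. Kupffer cell and macrophage markers summed to 5071 to 13168 in knockouts and 7288 to 9855 in controls, and 0 were called, also at an unadjusted limma p under 0.05.

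**Figure D2:**
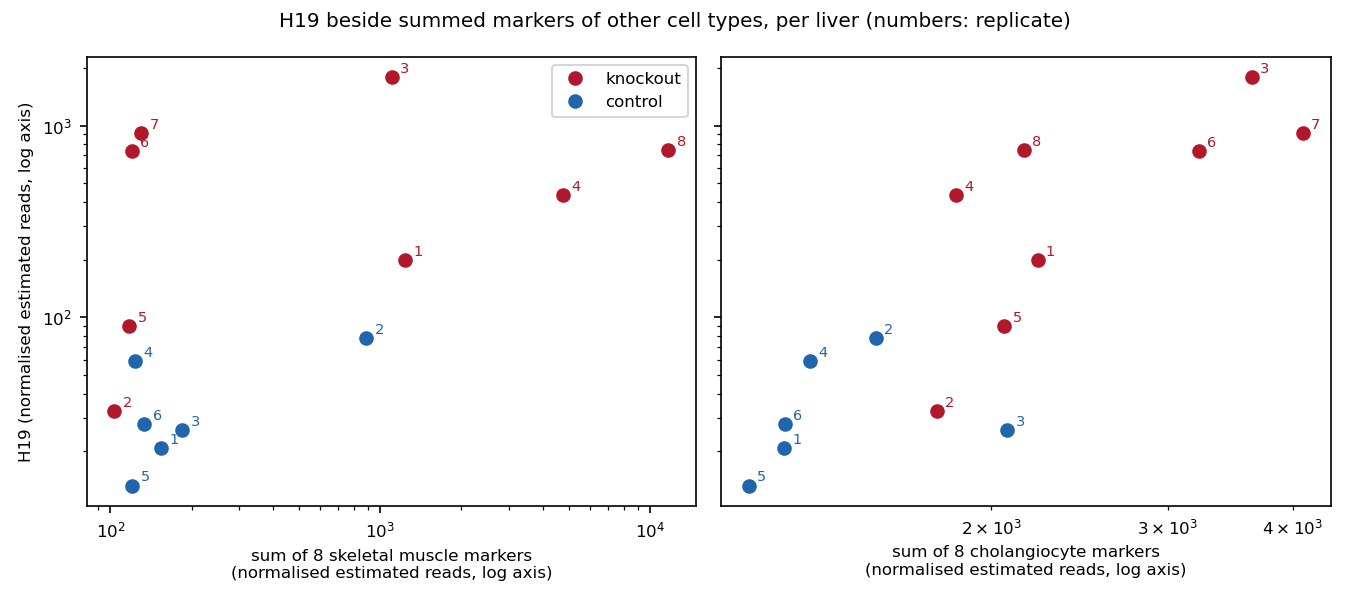
H19 in each liver against the sum of 8 skeletal muscle markers (left) and 8 cholangiocyte markers (right), in normalised estimated reads on log axes, with the replicate number beside each point. Knockouts 6 and 7 have high H19 at muscle sums of 120 and 130, and knockouts 3, 6 and 7 have the highest cholangiocyte sums.

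Igf2 (ENSMUSG00000048583, chr7:142650766-142666816, minus strand) encodes insulin-like growth factor 2, the main fetal growth factor of the family. It shares its locus and enhancers with H19 and is read from the other parental copy. It was near the limit of measurement, at 3.44 to 24.9 estimated reads per library. Its values were 10.4, 6.34, 12.5, 4.39, 24.5, 13.4, 10.2 and 9.14 in knockouts 1 to 8, and 5.76, 10.2, 18.0, 2.95, 14.7 and 19.1 in controls 1 to 6. The groups overlapped almost throughout. Igf2 differed by 0.03 on the log2 scale (SE 0.40), short of the threshold (limma adjusted p = 0.969). In the same 8 knockouts in which H19 averaged 617, Igf2 averaged 11.4 ± 6.08 (SD, n = 8), against 11.8 ± 6.59 in controls (SD, n = 6).

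The table also lists Gm49394, a protein-coding gene on the same strand at chr7:142650769-142669942. It shares 61.9% of the 31-base words of Igf2 transcripts, so the reads of these genes may have been split between them. Gm49394 averaged 53.2 ± 32.2 in knockouts (SD, n = 8) and 63.9 ± 49.0 in controls (SD, n = 6). The sum of both genes was 30.8 to 114 in knockouts and 37.2 to 163 in controls. It differed by -0.19 on the log2 scale (exact permutation p = 0.606, two-sided).

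Igf2r (ENSMUSG00000023830, chr17:12682406-12769664, minus strand) encodes the receptor that takes up IGF2 for breakdown in lysosomes, and so restrains growth. Its values were 155, 164, 323, 226, 200, 460, 583 and 165 in knockouts 1 to 8, against 124, 117, 175, 146, 170 and 143 in controls 1 to 6. All 8 knockouts were above the control mean and 5 were above the highest control. The highest were knockouts 6 and 7, followed by knockout 3. The means were 285 ± 159 in knockouts (SD, n = 8) and 146 ± 23.5 in controls (SD, n = 6). The log2 change of 0.80 (SE 0.28) missed the threshold narrowly (limma adjusted p = 0.0515), and the exact permutation p for this gene alone was 0.0203 (two-sided). Without knockouts 3, 6 and 7 the change was 0.32 (limma adjusted p = 0.145). It passed in 4 of 14 fits with 1 library left out. With equal sums it was 1.15 (limma adjusted p = 0.0114), but 33.8% of all genes were then called higher. Relative to the median change of all genes, Igf2r was 0.76 with equal sums and 0.75 in the main fit. Among genes above the median value it passed at 0.0370, where 37.8% of the genes were called.

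Airn, the noncoding RNA read from the opposite strand of Igf2r, is known to silence the paternal copy of Igf2r in the embryo. It rose to 81.5 ± 37.6 in knockouts (SD, n = 8), against 31.8 ± 4.03 in controls (SD, n = 6). The groups did not overlap, and Airn rose by 1.22 on the log2 scale (SE 0.25, limma adjusted p = 0.00253). The strand setting of the authors' counting was not given in the sources used here, so reads of the overlapping stretch of Airn and Igf2r may not be told apart.

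Grb10 (ENSMUSG00000020176, chr11:11930508-12038683, minus strand) encodes an adaptor that inhibits signalling from the insulin and IGF1 receptors. Its values were 55.1, 39.8, 107, 31.9, 69.6, 307, 373 and 66.1 in knockouts 1 to 8, against 37.6, 41.2, 61.3, 49.9, 52.2 and 60.3 in controls 1 to 6. Knockouts 6 and 7 stood far above all others. Over all livers the difference was 0.83 on the log2 scale (SE 0.48, limma adjusted p = 0.235), and without knockouts 3, 6 and 7 it was 0.02. The other 5 knockouts ranged on both sides of the control mean of 50.4.

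Meg3 (ENSMUSG00000021268, lincRNA, chr12:109541001-109571726, plus strand) is a maternally expressed long noncoding RNA of the Dlk1-Dio3 domain. Its values were 20.5, 18.6, 30.8, 22.1, 22.3, 23.2, 24.1 and 38.7 in knockouts 1 to 8. In controls 1 to 6 they were 146, 53.3, 47.2, 29.0, 79.0 and 44.7. All 8 knockouts were below the control mean and 6 were below the lowest control. The means were 25.03 ± 6.57 in knockouts (SD, n = 8) and 66.5 ± 42.1 in controls (SD, n = 6). Meg3 fell by 1.22 on the log2 scale (SE 0.29), with a limma adjusted p of 0.00712 and an exact permutation p of 0.000999 (two-sided). The spread lay mostly among the controls, of which control 1 was the highest and control 4 the lowest.

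The change in Meg3 was -1.26 without knockouts 3, 6 and 7 (limma adjusted p = 0.0239) and -1.39 without the livers high in muscle markers (0.0489). It was -1.31 at low Xist (0.0641) and -1.14 at high Xist (0.188), neither of which passed. Leaving out 1 library at a time gave -1.41 to -0.95, all called. Of 8 endothelial markers, Kdr, a receptor for vascular endothelial growth factor, and Clec4g, a lectin of sinusoidal endothelium, were called lower and 0 higher. The 25% called was close to the 22.4% of all genes tested, and the median change over the list was -0.26. At low Xist 3 were called lower, and at high Xist 0. Without knockouts 3, 6 and 7 it was 1, and without the livers high in muscle markers also 1. The 8 markers summed to 4086 to 6755 in knockouts and 5860 to 6994 in controls, which overlapped. Knockout 5 had the highest sum of the knockouts, within the range of the controls, and its Meg3 of 22.3 was below the lowest control. The part of endothelial cells in the Meg3 result was not tested. The depth behind Meg3 was 13.01 to 139 estimated reads per library.

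Rian (ENSMUSG00000097451, chr12:109603940-109661716, plus strand) follows Meg3 on the same strand and hosts small nucleolar RNAs and microRNAs. Its values were 38.0, 46.6, 53.7, 51.2, 45.5, 55.9, 60.5 and 59.5 in knockouts 1 to 8, against 168, 62.5, 81.9, 37.5, 92.1 and 94.7 in controls 1 to 6. All 8 knockouts were below the control mean of 89.4, but control 4 was lower than any knockout. The log2 change of -0.66 (SE 0.25) did not pass (limma adjusted p = 0.0660). It was -0.88 without control 4 (adjusted p = 0.00826) and -0.45 without control 1 (0.150). It also passed after quantile normalization, at -0.78 (0.0293), and with depth as a covariate, at -0.79 (0.0420), while with equal sums it was -0.31 (0.354).

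Dlk1 (ENSMUSG00000040856, chr12:109452823-109463336, plus strand) encodes a membrane protein related to the Notch ligands and a marker of fetal hepatoblasts. It was as low as Igf2, at 2.86 to 31.8 estimated reads. Its values were 10.2, 12.1, 19.2, 18.99, 10.99, 4.89, 14.2 and 4.63 in knockouts 1 to 8, and 19.5, 6.12, 11.7, 9.43, 13.3 and 12.1 in controls 1 to 6. No order of the groups was visible. Dlk1 differed by -0.08 on the log2 scale (SE 0.33), with a limma adjusted p of 0.891.

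Within the knockouts, Meg3 and Rian were compared across the 8 livers. On the log2 scale Pearson's r was 0.63 (exact permutation p = 0.0973, adjusted 0.389) and Spearman's rho was 0.76 (p = 0.0368, adjusted 0.147), adjusted over the 4 pairs of genes that share a locus. Without the 2 livers farthest from the median of Meg3, r was 0.68. Over the 6 controls r was 0.89 (exact permutation p = 0.0306, adjusted 0.122), which rested on 2 of them, since r was 0.14 without those farthest from the median. Dlk1 and Rian gave an r of 0.77 over the controls (exact permutation p = 0.0694, adjusted 0.139) and a rho of 0.89 (p = 0.0333, adjusted 0.133), with r at 0.94 without the 2 livers farthest from the median of Dlk1. Dlk1 and Meg3 gave 0.67 (exact permutation p = 0.144, adjusted 0.193) and a rho of 0.60 (p = 0.242, adjusted 0.322), and r was 0.95 without the same livers. Over the 8 knockouts Dlk1 gave an r of -0.19 with Rian (exact permutation p = 0.663) and -0.32 with Meg3 (exact permutation p = 0.463), both 0.884 adjusted. The rho was -0.02 and -0.10 (exact permutation p = 0.977 and 0.840, both 0.977 adjusted), and without the 2 farthest livers r was 0.69 and 0.66. H19 and Igf2 gave an r of 0.03 in knockouts and -0.43 in controls (exact permutation p = 0.948 and 0.388, the same when adjusted). Their rho was 0.10 and -0.20 (exact permutation p = 0.840 and 0.714, adjusted 0.977 and 0.714), and without the 2 farthest livers r was 0.37 and 0.24. No pair passed after adjustment, and Dlk1 and Igf2 were low throughout.

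Peg3 (ENSMUSG00000002265, chr7:6703892-6730431, minus strand) encodes a paternally expressed zinc finger protein. Its values were 96.8, 91.7, 163, 100.4, 163, 1347, 662 and 130.03 in knockouts 1 to 8, against 241, 346, 256, 206, 254 and 366 in controls 1 to 6. The knockouts split, with 6 below the lowest control and knockouts 6 and 7 above the highest. The log2 change over all livers was -0.43 (SE 0.53, limma adjusted p = 0.605). Without knockouts 3, 6 and 7 it was -1.26 and passed (adjusted p = 0.000715). It was also called at low Xist, at -1.22 (0.00803), where neither knockout 6 nor 7 takes part. At high Xist, where both do, it was 0.28 (0.902), and without the livers high in muscle markers it was 0.39 (0.747). The difference between the Xist classes was 1.51 (SE 0.90, limma interaction, adjusted p = 0.829). The deviation of knockouts 6 and 7 in Peg3, Grb10 and Igf2r went with the 2 lowest hepatocyte marker sums, 372150 and 377621, and with a mitochondrial share of reads of 7.85% and 7.91%. That share was at most 5.47% in the other libraries, and the part of either in these values was not tested.

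Plagl1 (ENSMUSG00000019817, chr10:13060504-13131694, plus strand) encodes a zinc finger transcription factor that is known to regulate other imprinted genes. It reached 10 in 4 libraries and so was not in the fit. It ranged from 5.74 to 12.3 in knockouts (median 8.89) and from 6.14 to 10.2 in controls (median 7.36). The difference was 0.23 on the log2 scale (exact permutation p = 0.193, two-sided).

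Mest (ENSMUSG00000051855, chr6:30723547-30748465, plus strand) encodes a protein of the alpha/beta hydrolase family. Its values were 24.0, 20.1, 32.5, 22.4, 44.2, 26.5, 26.3 and 33.8 in knockouts 1 to 8, and 19.2, 22.1, 22.7, 25.7, 18.2 and 42.4 in controls 1 to 6. Mest differed by 0.21 on the log2 scale (SE 0.22, limma adjusted p = 0.532). Control 6 came close to the highest knockout, and most other livers lay close together.

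**Figure D3:**
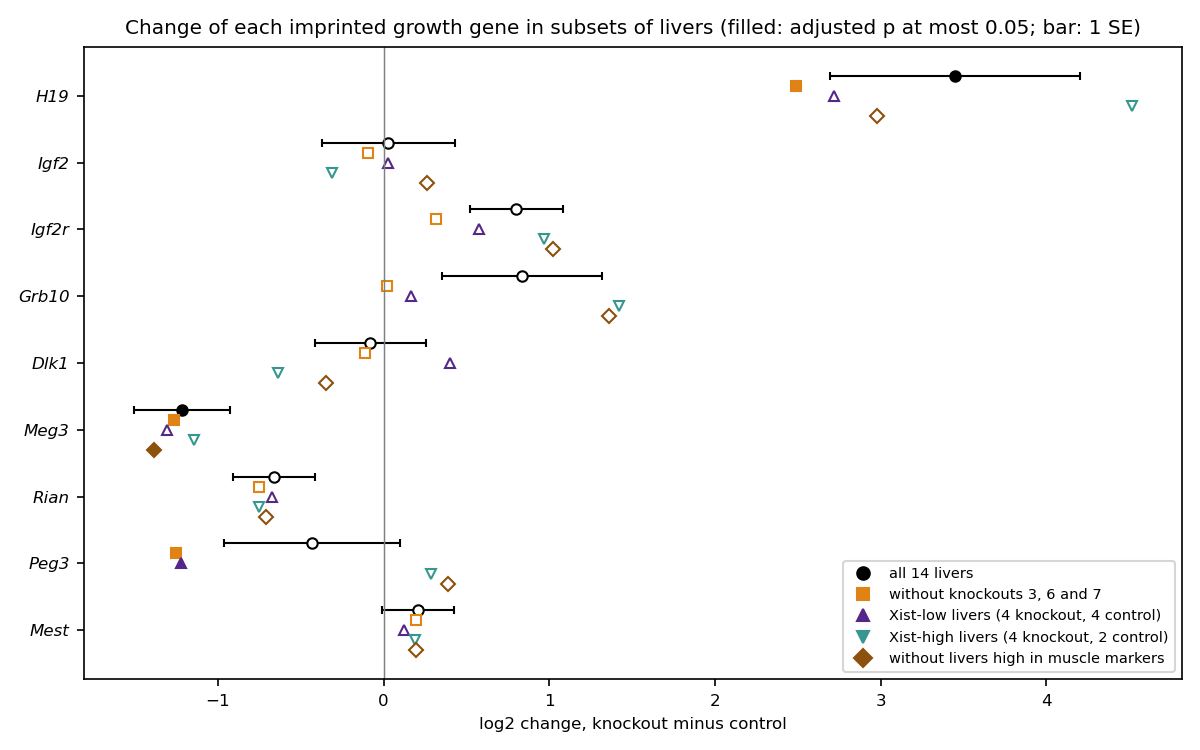
Log2 change, knockout minus control, of the 9 tested genes over all 14 livers (black, bar of 1 SE) and in 4 subsets of livers, filled where the limma adjusted p is at most 0.05. Meg3 stays between -1.39 and -1.14, H19 between 2.49 and 4.52, and Peg3 runs from -1.26 to 0.39.

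Over the 9 tested genes, the counts called without knockouts 3, 6 and 7 were 1 higher (H19) and 2 lower (Meg3 and Peg3). In that fit 18.4% of all genes were called. In the livers of low Xist Peg3 alone was called, where 15.7% of all genes were. In those of high Xist 0 of the 9 were called by limma, where 0.93% of all genes were, and 1 was higher and 2 were lower at an unadjusted p under 0.05. Without the livers high in muscle markers Meg3 alone was called, against 11% of all genes.

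Levels were compared between genes per kilobase of exon, as medians over the livers of a group. In knockouts H19 was the highest, at 238 per kb, followed by Igf2r (22.9), Peg3 (11.003), Grb10 (7.47), Mest (6.70), Rian (2.88), Dlk1 (2.04), Igf2 (1.80), Meg3 (1.26) and Plagl1 (1.14). In controls Peg3 was the highest, at 19.2 per kb, followed by Igf2r (15.6), H19 (10.8), Mest (5.68), Grb10 (5.61), Rian (4.77), Meg3 (2.78), Igf2 (2.17), Dlk1 (2.10) and Plagl1 (0.94). H19 was thus the highest in knockouts and the third in controls. These levels of Igf2 are of its own entry, and summed with Gm49394 the medians were 11.1 per kb of Igf2 exons in knockouts and 10.8 in controls, so its place in both orders depends on how the reads were split. The ranges over livers overlapped between all neighbours in these orders, except between Mest (5.09 to 11.2 per kb) and Rian (2.08 to 3.32 per kb) in knockouts.

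Genes whose start lies within 500 kb of one of the 10 were examined next. Of 323 such genes 102 were tested, of which 14 were higher and 3 lower, with a median change of 0.13 against 0.05 over all genes. This was 16.7% called, against 22.4% of all genes tested. With equal sums the counts were 39 and 1, where 33.8% of all genes were called higher and 3.53% lower. Around H19 and Igf2, Ctsd, a lysosomal protease, rose by 0.57 and Tssc4 by 0.71 (limma adjusted p = 0.0109 and 0.00215). Tnni2 and Tnnt3, which encode fast skeletal muscle troponins, start at -136335 and -79307 bases relative to the start of H19 and were named for their values. They averaged 329 and 484 in knockouts, against 26.6 and 41.6 in controls, were not called, and are among the muscle markers above. Around Igf2r, 5 of 21 tested neighbours rose and 2 fell. Mas1, which encodes a receptor for angiotensin 1-7, starts 98479 bases from Igf2r and was also picked out after its values were seen. It rose to 122 ± 26.3 in knockouts (SD, n = 8), against 10.2 ± 3.85 in controls (SD, n = 6), or 3.50 on the log2 scale (limma adjusted p = 3.85e-07). Slc22a3 and Slc22a2, organic cation transporters of the same cluster, rose by 0.88 and 1.24. Around Meg3, 0 of the 6 tested neighbours were called by limma, with 1 higher and 1 lower at an unadjusted p under 0.05, and 0 by the authors' deposited q. Around Peg3, 4 of 20 tested neighbours were called, close to the 22.4% of all genes tested. These 4 were all higher, Zfp667 by 0.68, Gm3854 by 0.70, Zfp28 by 0.62 and Zfp772 by 0.58.

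**Figure D4:**
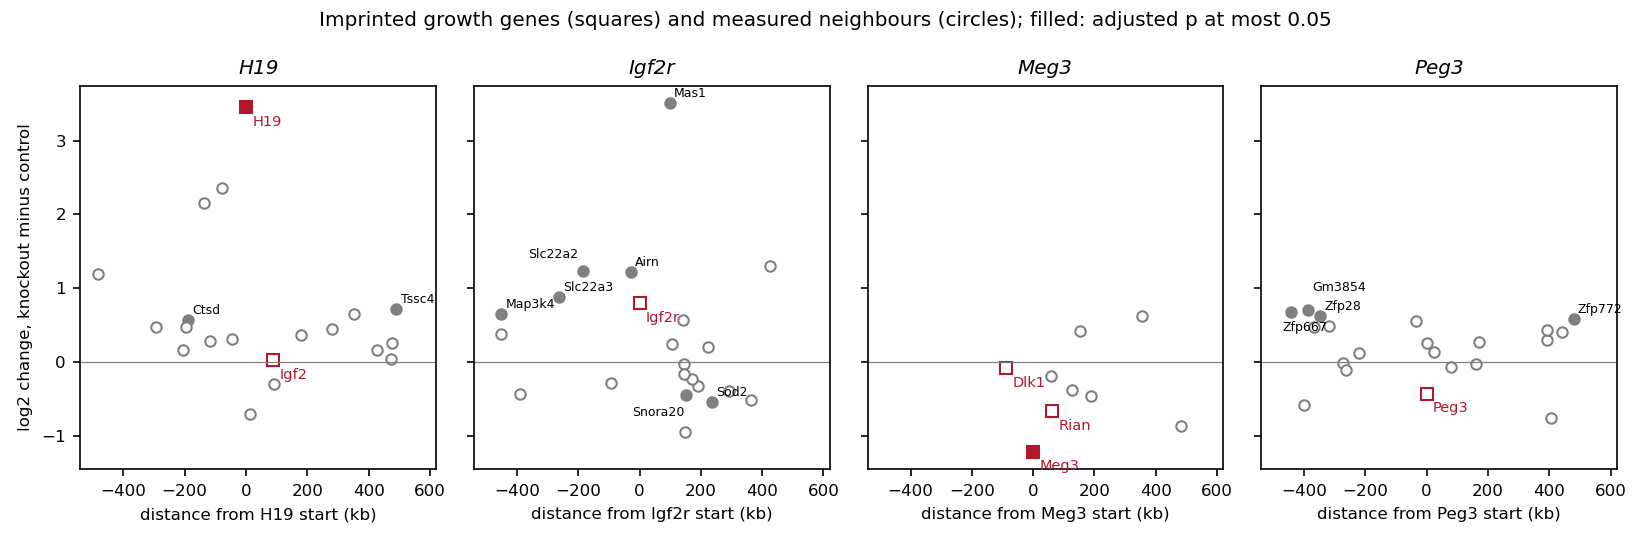
Log2 change, knockout minus control, against the distance from the start of H19, Igf2r, Meg3 and Peg3 in kb. Squares are these genes and the imprinted growth genes within 500 kb of them, and circles are their tested neighbours, filled where called. Grb10, Plagl1 and Mest are not shown. H19 at 3.45 stands beside Igf2 at 0.03, and no neighbour of Meg3 is called. Igf2r at 0.80, itself not called, lies among 5 called increases up to 3.50 and 2 called decreases.

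Among 60 other imprinted genes, 48 were tested, of which 12 rose, 4 fell and 32 did not pass, with a median change of 0.09. The share called was 33.3%, against 22.4% of all genes tested, of which 11.5% were higher and 11% lower. The largest increase was in Phlda2, a maternally expressed gene known to restrain placental growth. It had 27.7 to 75.8 in knockouts, against 0 to 7.41 in controls, which is 3.62 on the log2 scale (SE 0.42, limma adjusted p = 3.79e-05). Kcnq1ot1, the noncoding RNA that controls imprinting of the Phlda2 domain, rose to 2879 ± 376 in knockouts (SD, n = 8), against 1775 ± 110.2 in controls (SD, n = 6), a change of 0.69. Slc38a4, a paternally expressed amino acid transporter, fell to 7982 ± 2920 in knockouts (SD, n = 8), against 18205 ± 1178 in controls (SD, n = 6), a change of -1.27 (limma adjusted p = 0.000394). The other increases were Slc22a2, Airn and Slc22a3, given above, Cobl (0.78), Tssc4 (0.71), Mcts2 (0.45), Snrpn (0.40), Blcap (0.38), Slc22a18 (0.30) and Inpp5f (0.29). The other decreases were Zrsr1 (-0.73), Peg13 (-0.44) and Gnas (-0.34, but 0.015 with equal sums). With 1 library left out the calls of Mcts2, Gnas, Inpp5f and Slc22a18 were lost in 10, 8, 7 and 2 of 14 fits. Without knockouts 3, 6 and 7 the counts were 8 higher and 5 lower, where 18.4% of all genes were called. Without the livers high in muscle markers they were 3 and 2, where 11% of all genes were called. At low Xist they were 9 and 4, against 15.7% of all genes, and at high Xist 1 and 0, against 0.93%. With equal sums, which moved the median of all genes to 0.40, they were 24 and 1. In that fit 33.8% of all genes were called higher and 3.53% lower.

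Of 20 genes of IGF signalling 19 were tested, of which 5 fell, 0 rose and 14 did not pass, with a median of -0.15. The 26.3% called was close to the 22.4% of all genes tested. At an unadjusted limma p under 0.05 the counts were 6 lower and 3 higher, and by the authors' deposited q 5 were lower and 0 higher. Igf1, the postnatal growth factor made by hepatocytes, fell to 9461 ± 3109 in knockouts (SD, n = 8), against 20554 ± 1682 in controls (SD, n = 6), or -1.20 on the log2 scale (limma adjusted p = 0.00106). Igfbp2, a binding protein for IGF1 and IGF2, had 2969 to 4394 in knockouts, against 8695 to 14836 in controls, a change of -1.57 (limma adjusted p = 6.91e-06). Igfbp4, another binding protein, fell by 0.90, Htra1, a protease that cleaves binding proteins, by 0.73 and Ghr, the growth hormone receptor, by 0.69. Ghr lost its call without control 3 (adjusted p = 0.0504). With equal sums 3 genes of the list were lower and 4 higher, against 3.53% and 33.8% of all genes. After quantile normalization 3 were lower and 1 higher, against 10.2% and 10.1%. Igfbp1 had a change of 1.72 that was not called. Hepatocyte markers were lower in the same livers, and their part in these changes was not tested.

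Of 18 fetal liver genes and their repressors 16 were tested, of which 3 rose, 0 fell and 13 did not pass, with a median of 0.31. The 18.8% called was close to the 22.4% of all genes tested. At an unadjusted limma p under 0.05 the counts were 3 higher and 0 lower, and by the authors' deposited q 3 were higher and 1 lower. Afp, the fetal serum protein that is silenced after birth along with H19, was 15.1 to 181 in knockouts, against 24.6 to 42.4 in controls. It was high in knockouts 6 and 7, at 119 and 181, and within or below the range of the controls in the other 6. Its change was 0.34 (limma adjusted p = 0.661). Zhx2 and Zbtb20, repressors of Afp and H19 (Zhx2) or of Afp (Zbtb20) in mouse liver, had changes of -0.18 and 0.05 and were not called. The 3 that rose were Sox4, a transcription factor (1.80), Epcam, an epithelial adhesion protein (1.31), and Lpl, lipoprotein lipase (1.19). Epcam is also among the cholangiocyte markers, whose sums are given above. Without knockouts 3, 6 and 7 Sox4 alone was called. Epcam lost its call in 8 of 14 fits with 1 library left out, and Lpl in 1, without control 6.

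Factors that maintain DNA methylation at imprints included 4 that rose and 0 that fell, of 20 tested of 21, with a median of 0.15. The share called, 4 of 20, was close to the 22.4% of all genes tested. At an unadjusted limma p under 0.05 the counts were 4 higher and 3 lower, and by the authors' deposited q 3 were higher and 0 lower. Uhrf1, which brings the maintenance methyltransferase to replicating DNA, rose to 178 ± 152 in knockouts (SD, n = 8), against 31.7 ± 15.4 in controls (SD, n = 6), a change of 2.14 (limma adjusted p = 0.00619). Hells, a chromatin remodeller needed for DNA methylation, rose to 204 ± 135 in knockouts (SD, n = 8), against 40.0 ± 9.65 in controls (SD, n = 6), a change of 2.10 (0.000725). Both are known to be high in dividing cells. Setdb1, a histone methyltransferase, rose by 0.43 and Tet3, which oxidises methylated cytosine, by 0.28. Dnmt1, the maintenance methyltransferase itself, had a change of 0.39 that was not called. Tet3 lost its call in 3 of 14 fits with 1 library left out. Without knockouts 3, 6 and 7 the counts were 3 higher and 2 lower, where 18.4% of all genes were called. At low Xist Hells alone was called higher and Zfp445, another factor of the list, alone lower, against 15.7% of all genes. At high Xist 0 were called, where 0.93% of all genes were. There 3 were higher and 0 lower at an unadjusted limma p under 0.05.

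**Figure D5:**
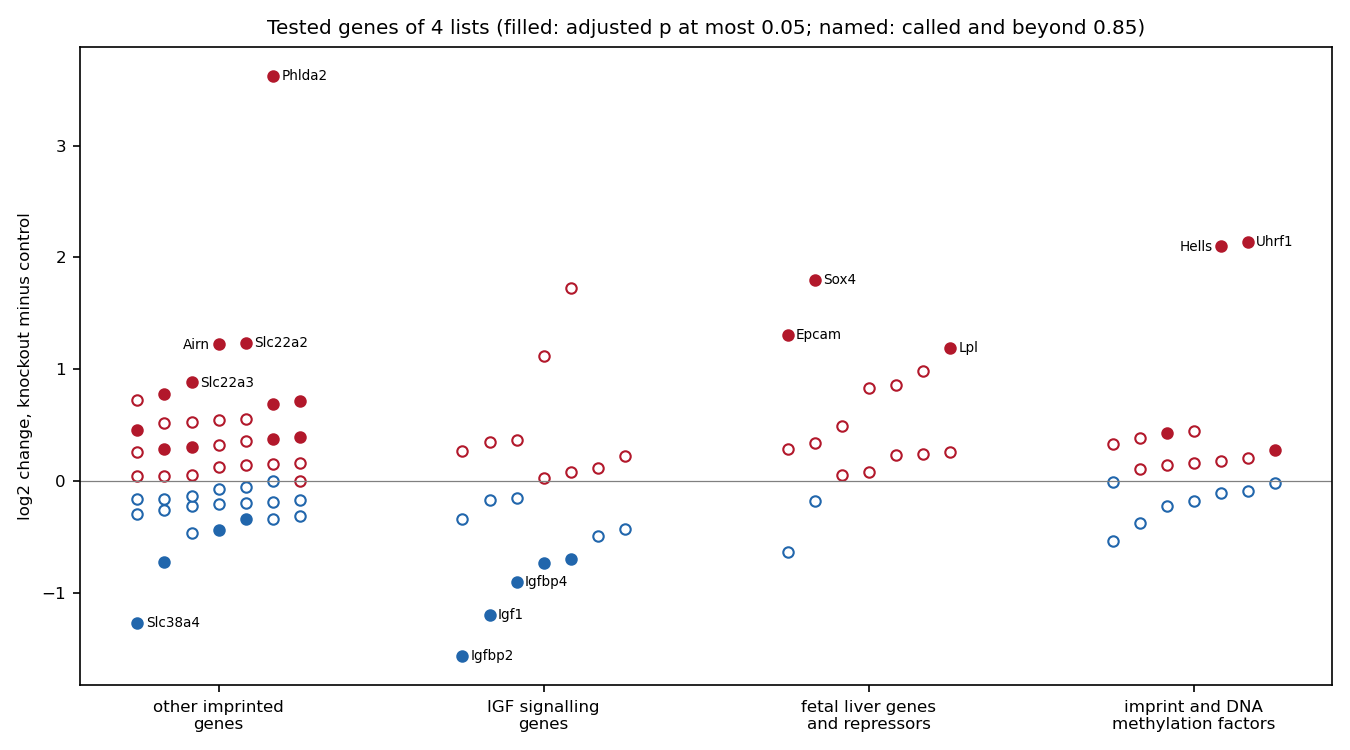
Log2 change, knockout minus control, of each tested gene of the 4 lists, red above 0 and blue below, filled where the limma adjusted p is at most 0.05. Phlda2 at 3.62 and Uhrf1 at 2.14 are the highest called genes, and Igfbp2 at -1.57 is the lowest.

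The genes most like H19 across the 8 knockouts were sought by Pearson's r on the log2 scale among 10449 genes above the median value. They were Sparcl1 (r = 0.97, rho = 0.98), which encodes a secreted matrix-associated glycoprotein, Cd34 (0.95 and 0.88), a surface protein of endothelial and progenitor cells, Zbed6 (0.94 and 0.90), a zinc finger protein, Tgfbr1 (0.94 and 0.95), a receptor of TGF-beta, and Cacul1 (0.94 and 0.88). None of the 5 was called between knockouts and controls, with changes of 0.15, 0.39, -0.21, -0.17 and 0.37. They are the highest of many values over 8 livers, given as a description without a test.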

How the data were processed

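Liver RNA was measured by total RNA sequencing in 8 knockout and 6 control mice. Per the labels' protocols, Trizol was used for extraction and a stranded Takara SMARTer Pico kit for the libraries. Per the submitters' processing notes, kallisto and sleuth were used on mm10, and versions and the strand setting were not given in the sources used here. As read from the values, the signal deposited for each library is its estimated reads per gene over 1 size factor. Whole multiples of 1 read made up 27.9% to 29.8% of low values (within 0.02 of a read, under 200 reads), so they were not used as counts. The 75859 lines held 54446 genes. For 27865 genes the authors deposited a p-value and a q-value. The natural log change that the authors deposited runs control minus knockout, and the column named as log2 is that number with its sign turned. The changes of the main fit use neither. Turned to knockout minus control, the natural log change set the direction of results by the authors' q, also among the alternatives.

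The design named a count test or a log-scale test by unit. The unit called for the log-scale test: limma 3.58.1 (R 4.3.3) with a trended prior on log2(value + 1), without covariates, for genes that reached 10 in 6 or more libraries. Its steps were tested on simulated data in which the changes were known. Single genes were also tested by an exact permutation of libraries. Each library was taken as 1 mouse, which the labels do not state outright, and p-values measure only the spread between these samples. Positions came from GENCODE M21 on GRCm38, and promoters and microRNAs from RefSeq on GRCm38.p6.

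The 10 genes and the lists were chosen with earlier results of these data known. Named genes were the 10, every called member of a list, at most 3 uncalled ones per list with the highest values, Mettl3, Afp and the 5 genes most like H19. Xist classes were read from the values. Alternatives were other pseudocounts, filters, scalings, covariates, thresholds, the replicate block, each library left out, the subsets of livers and the authors' deposited q. Low values are least precise where depth is low, and no counting interval can be given for values that are not counts.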

Additional observations from a re-analysis of the deposited data

How the results depend on the processing

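Of 256 values of the 9 tested imprinted growth genes under alternatives, 219 kept direction and side of the threshold, 5 lost the call, 12 gained it and 20 changed sign. H19 kept its sign in all of them and missed the threshold at low Xist, at high Xist and without the livers high in muscle markers; Meg3 did so at low and at high Xist. Fewer libraries entered these fits.

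The replicate numbers correlated over 0.1 in 5 of 6 pairs, and 3 of 6 knockouts correlated best with their own number, so they were not taken as pairs. With the replicate block over replicates 1 to 6, the imprinted growth genes gave 2 higher, since Igf2r passed (0.70, limma adjusted p = 0.0343, against 0.0578 with no block over the same libraries), with 2031 genes higher and 1928 lower in all. Dlk1 was 0.034 with the replicate block and 0.034 with no block over the same libraries.

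The number of imprinted growth genes called higher was 2 among genes above the median value and with equal sums outside ribosomal RNA and mitochondrial genes, and 0 at low Xist, at high Xist and without the livers high in muscle markers. The number lower was 0 at high Xist and also among genes above the median value, where Meg3 was too low to be tested, and 2 after quantile normalization, with log2 depth as a covariate and without knockouts 3, 6 and 7. With 1 library left out it was 1 to 2 in either direction. Over all genes, equal sums gave 7972 higher and 831 lower, with the median of all genes at 0.40, relative to which H19 was at 3.40 and Meg3 at -1.27. High Xist gave 172 and 47, low Xist 1740 higher, the livers without high muscle markers 1290 and 1301, and a threshold of 0.01 gave 1311 and 1358.

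Signs changed in genes that were not called over all livers. Igf2 was -0.14 after quantile normalization, -0.11 with Xist class and -0.24 with depth as a covariate, -0.10 without knockouts 3, 6 and 7, -0.31 at high Xist, and -0.27 to 0.20 with 1 library left out. Dlk1 was 0.24 with equal sums, 0.01 with depth as a covariate, 0.40 at low Xist, and -0.24 to 0.071 with 1 left out. Peg3 was 0.28 at high Xist and 0.39 without the livers high in muscle markers. Zhx2 was 0.18 with equal sums. Zbtb20 was -0.13 without the livers high in muscle markers, and -0.00078 to 0.13 with 1 left out. Afp was -0.30 without knockouts 3, 6 and 7 and -0.060 at low Xist. Gnas, called over all livers, was 0.015 with equal sums. The cause was not tested. Depth limits Igf2, Dlk1 and Plagl1 most.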
